A study of Mus musculus with 24 samples.

Results

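The genes described here are the anti-apoptotic genes Bcl2, Bcl2l1 and Mcl1, the BH3-only genes Bcl2l11, Bid, Bad, Bmf and Hrk, the effector gene Bak1 and the initiator caspase gene Casp8. They were taken by gene symbol, and all 10 were found among the 21833 protein-coding genes of the expression table. Of the 10 genes, 9 reached 1 FPKM in at least 3 libraries and entered the test across genes, and Bcl2 did not. FPKM values are fragments scaled by the length of the gene in kilobases and by the library size after TMM scaling, in units of 1000000 fragments. Levels of different genes can thus be set beside each other.

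In the mitochondrial route of apoptosis, the effector proteins BAK and BAX open the outer mitochondrial membrane, and the anti-apoptotic proteins BCL2, BCL-XL (made from Bcl2l1) and MCL1 hold them in check. BH3-only proteins such as BIM (made from Bcl2l11), BID, BAD, BMF and HRK bind the anti-apoptotic proteins or the effectors and tip this balance toward death. Caspase-8 acts in the other route, below death receptors at the cell surface, and joins both routes by cutting BID. In human neuroblastoma, a tumor of the sympatho-adrenal lineage, silencing of CASP8 and a reliance on BCL2 or MCL1 are well known.

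Libraries of poly(A) RNA were sequenced from 24 mouse tissue samples. AG were adrenal glands with the genotype CRE - (n = 3). AGM were adrenal glands with the genotype MYCN +/-, CRE + that had formed no tumor (n = 5). TI were neuroblastoma tumors with the IGF2BP1 transgene and CRE +, 1 of them IGF2BP1 +/- and 7 IGF2BP1 +/+ (n = 8). TIM were neuroblastoma tumors carrying both transgenes, labelled IMP1/MYCN and CRE + (n = 8). The transgenes sat at the Rosa26 locus behind a stop cassette, and an iCRE under the Dbh promoter removed the cassette in cells that make noradrenaline, so other cells of a sample carried silent transgenes. The study's genotyping found no wildtype Rosa26 allele in mice with both transgenes, so TIM had a single allele of each transgene. Sources were given as tumor for 7 TI and 5 TIM samples, adrenal gland tumor for 1 TI and 2 TIM samples and spine tumor for 1 TIM sample. Age and strain were not in the labels, and the study's methods name individual mice as the replicates of its transgenic mouse work. The study states that its mice were backcrossed to C57Bl6/N. It culled MYCN mice without tumors later than IGF2BP1 +/+ mice with tumors, and median survival was shorter in mice with both transgenes. Age thus differed between AGM, TI and TIM, and its part was not tested.

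Outside 126 genes above 1000 FPKM, none of them among the 10 genes, the libraries held between 12334076 and 23683176 reads, and 1 FPKM stood for 74.7 to 134 reads per kilobase of gene. The scaled library sizes behind these values differed from the read totals. In AG library 1, 1 FPKM stood for 107 reads per kilobase beside a total of 17467197 reads. In AGM library 3 it stood for 80.3 beside 1170004708 reads. A value below 1 FPKM thus need not mean few reads. No AG or TI library had a gene above 1000 FPKM. The 126 genes took 86.2% to 98.6% of the reads recovered from the deposited values in AGM and 64.5% to 97.3% in TIM, against at most 0.792% in AG and 2.21% in TI, and single genes reached 12269000 FPKM in AGM. These genes were set aside in a recomputed FPKM because they held most of the total in AGM and TIM. The deposited values had been corrected for batch by the authors, and whether the values of the 126 genes come from this correction or from expression was not tested. All 3 AG samples were sequenced in run 1 and all 5 AGM samples in run 2, so sequencing run cannot be told apart from group where AGM or TIM is set against AG. Of the TI samples 6 were in run 1, 1 in run 2 and 1 in run 3, and of the TIM samples 3 were in run 2 and 5 in run 3. TIM and TI thus also differed largely in run, and since runs could not be attached to expression columns, the part of run in TIM vs TI and TIM vs AGM was not tested. When FPKM was recomputed without the 126 genes, the median difference of all genes moved on the log2 scale by 0.21 (TIM vs AGM), -0.12 (TIM vs TI), -0.35 (AGM vs AG) and -0.15 (TIM vs AG). The share of calls that were higher then went from 51.2% to 21.1% in AGM vs AG, from 43.6% to 29.4% in TIM vs TI and from 48.8% to 60.2% in TIM vs AGM. In TIM vs AG it went from 44.2% to 37.4%, or to 33.0% with limma-voom on the reads. The 8 adrenal cortex markers, which include Star and Cyp11b1 of steroid synthesis, summed to 675 to 704 FPKM in AG and 3667 to 4906 FPKM in AGM but to 0.493 to 13.5 FPKM in TI and 1.28 to 11.3 FPKM in TIM. The 8 sympatho-adrenal markers, such as Dbh and Th, summed to 197 to 3883 FPKM in TIM, 196 to 1606 FPKM in TI, 900.4 to 1700 FPKM in AGM and 90.04 to 130 FPKM in AG. Among these markers, Cyp21a1 and Hsd3b1 (up to 1678 and 1461 FPKM in AGM) belong to the 126 genes. So do Th (up to 1889 FPKM in TIM) and Chga (up to 1270 FPKM in AGM). Both sums in AGM, and the sympatho-adrenal sum in TIM, thus include values of genes that were set aside. The 4 adipocyte markers had a median sum of 184 FPKM in AG and 226 FPKM in AGM but 0.957 FPKM in TI and 2.04 FPKM in TIM, and the 4 endothelial markers one of 14.3, 10.5, 3.52 and 3.51 FPKM in that order. No marker was at 0 in every library. In bulk tissue, fewer cells of a type cannot be told apart from less RNA per cell. The part of these marker differences in the differences from AG and AGM given below was not tested.

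The promoters of Hrk and Casp8 are shown because these genes had the largest rise and the lowest tumor to gland ratio of the 9 tested genes. Each line holds the 250 bases before the start of the canonical transcript (GENCODE release M39, GRCm39, the build named mm39 by the submitters), 5′ to 3′ on the gene's strand, with every CG dinucleotide in capitals. The Hrk window is chr5:118307528-118307777 on the plus strand and holds 19 CG dinucleotides, and the Casp8 window is chr1:58834127-58834376 on the plus strand and holds 1.
Hrk: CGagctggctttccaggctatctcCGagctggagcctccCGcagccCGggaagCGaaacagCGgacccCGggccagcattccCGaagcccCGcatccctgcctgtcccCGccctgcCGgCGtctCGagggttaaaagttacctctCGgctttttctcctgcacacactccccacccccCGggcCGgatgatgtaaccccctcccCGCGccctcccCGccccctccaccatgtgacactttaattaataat
Casp8: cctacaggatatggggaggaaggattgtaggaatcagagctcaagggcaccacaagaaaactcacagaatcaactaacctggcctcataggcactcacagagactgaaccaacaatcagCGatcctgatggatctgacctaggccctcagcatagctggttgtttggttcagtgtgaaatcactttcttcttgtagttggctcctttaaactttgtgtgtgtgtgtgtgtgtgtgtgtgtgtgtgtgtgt
Among the promoters of the tested genes the median was 12 CG dinucleotides, 26.8% held at least as many as Hrk and 3.93% held at most 1. The other windows held 3 (Bak1), 9 (Bmf), 15 (Bid), 18 (Bad), 20 (Bcl2l1), 24 (Bcl2l11), 26 (Mcl1) and 36 (Bcl2) CG dinucleotides. The sequence CACGTG, the E-box bound by proteins of the MYC family and the same on both strands, was in none of the 10 windows and in 7.93% of 10160 windows of tested genes. No match says only that these letters are not in this window.

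Among the anti-apoptotic genes, Mcl1 had the highest level in every library and was lower in both tumor groups. It lies at chr3:95566026-95570487. Its FPKM was 14.6, 15.1 and 14.7 in AG and 11.4, 11.7, 14.9, 13.2 and 10.6 in AGM. In TI it ran from 6.29 over a median of 7.73 to 9.74, and in TIM from 7.17 over 8.34 to 11.2. Every tumor library was below every AG library. The difference was -0.84 ± 0.14 (SE) in TI vs AG (FDR = 3.02e-05, limma) and -0.72 ± 0.14 in TIM vs AG (FDR = 0.000192, limma) on the log2(FPKM + 1) scale. FDR is the p-value adjusted by Benjamini-Hochberg over all 10171 tested genes, and 0.05 was the threshold. Against AGM, TIM was lower by the deposited FPKM (-0.47 ± 0.12, FDR = 0.00169, limma) but not by recomputed FPKM (-0.19, FDR = 0.303) or by limma-voom (-0.16, FDR = 0.372).

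Bcl2l1, at chr2:152622582-152673655 on the minus strand, was the second most abundant anti-apoptotic gene and rose in TIM. Its FPKM was 3.28, 3.08 and 2.87 in AG and 3.05, 2.64, 2.91, 2.93 and 3.84 in AGM. It ran from 3.495 over a median of 3.85 to 4.72 in TI and from 2.52 over 5.16 to 6.60 in TIM. All 8 TI libraries were above every AG library, and in TIM 7 of 8 were above and 1 was below every AG library. The difference was 0.46 ± 0.16 in TIM vs AG (FDR = 0.0201, limma) and 0.29 ± 0.16 in TI vs AG (FDR = 0.142, limma). The TIM vs AG call was lost without AG library 2 (FDR = 0.0599) or AG library 3 (FDR = 0.0825), with recomputed FPKM (FDR = 0.0575) and with the spread of only those groups (FDR = 0.0937), whereas with the latter the TI vs AG difference passed (FDR = 0.0190). TIM was also above AGM (0.47 ± 0.14, FDR = 0.00465, limma).

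Bcl2, the gene that names the family, was the least abundant of the anti-apoptotic genes in every group. It lies at chr1:106465908-106642060 on the minus strand. Its FPKM was 0.183, 0.174 and 0.173 in AG, which stood for 168 to 180 reads per library, and 0.101, 0.169, 0.0857, 0.0631 and 0.0391 in AGM. It ran from 0.137 over a median of 0.249 to 0.274 in TI and from 0.0527 over 0.265 to 0.697 in TIM. All AGM libraries were below AG, while both tumor groups spread over both sides of AG. In exact two-sided permutation tests of mean FPKM, none of 5 comparisons passed after adjustment over the 5, and the lowest p was that of TIM vs AGM (p = 0.0272, adjusted p = 0.134). Without TIM library 8, the lowest in that group, this adjusted exact p was 0.0316. In a limma fit without the expression filter, in which 50.3% of all genes passed in TIM vs AGM, Bcl2 was higher in TIM (0.25, FDR = 0.00833). With recomputed FPKM, Bcl2 entered the limma fit and was higher in TIM than in AGM (0.83, FDR = 0.00204). There 63.2% of all genes passed, with a median difference of 0.24, and no other comparison of Bcl2 passed.

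**Figure D1:**
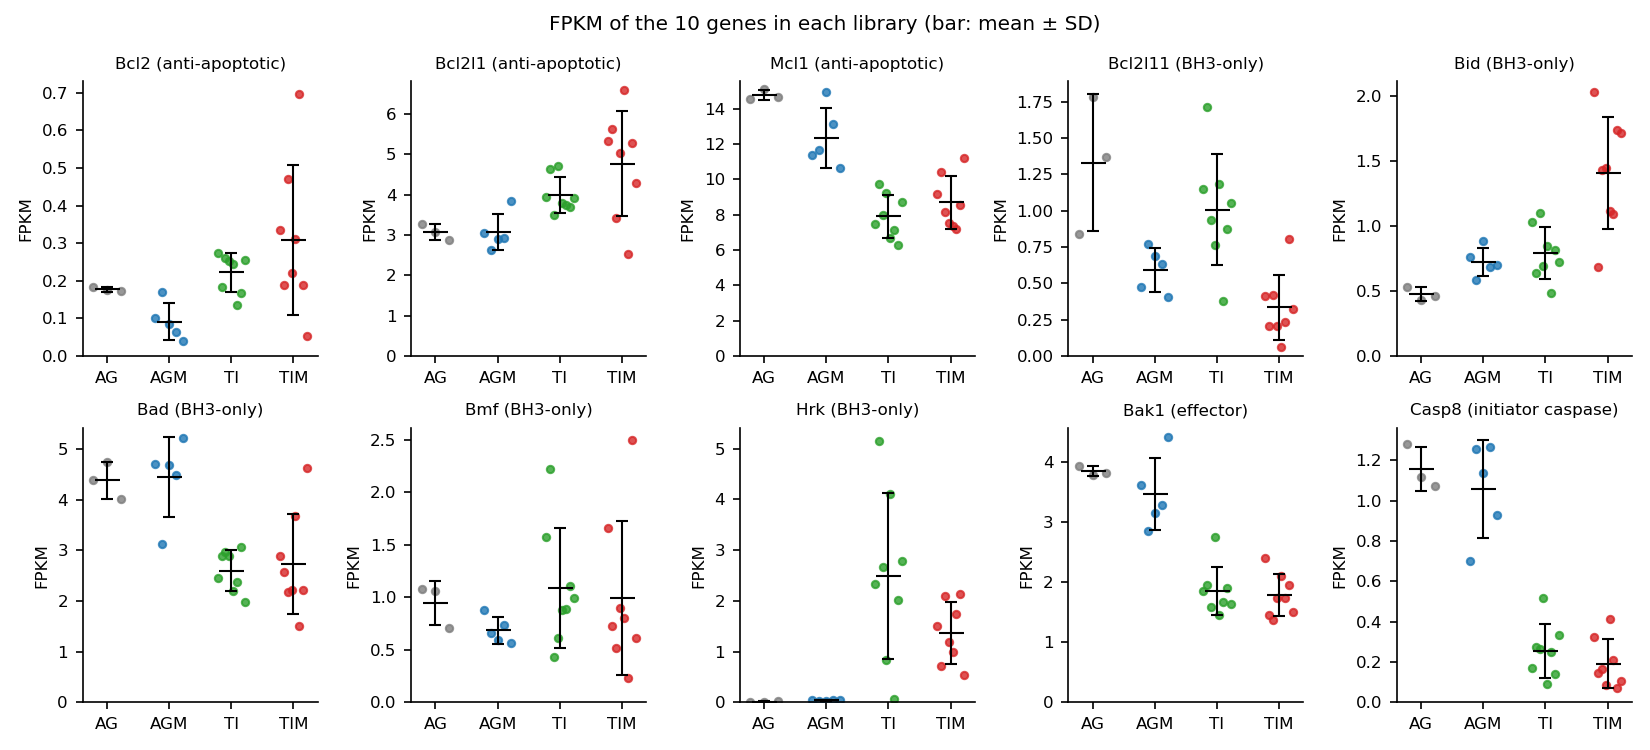
FPKM (vertical axes, linear, from 0, with a scale for each gene) of the 10 genes in each of the 24 libraries, as points by group, with the mean ± SD as bars. Casp8, Bak1 and Mcl1 sit lower in both tumor groups than in AG, Hrk is near 0 in the glands and spreads up to 5.15 FPKM in TI, and Bcl2l11 and Bid separate TIM from TI in part.

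Among the BH3-only genes, Hrk had the largest rise. HRK is found mainly in neurons and binds BCL-XL. The gene lies at chr5:118302713-118327543, and its promoter is the first sequence shown above. Its FPKM was 0.00492, 0.0151 and 0.0199 in AG, or 3, 9 and 12 reads, and 0.0565, 0.0307, 0.0351, 0.0387 and 0.0526 in AGM, or 16 to 26 reads. In TI it ran from 0.0702 over a median of 2.50 to 5.15 FPKM (42 to 2986 reads), and in TIM from 0.544 over 1.35 to 2.14 FPKM (275 to 1390 reads). Every tumor library was above every gland library. The difference was 1.61 ± 0.34 in TI vs AG (FDR = 0.000374, limma), 1.18 ± 0.34 in TIM vs AG (FDR = 0.00590) and 1.14 ± 0.29 in TIM vs AGM (FDR = 0.00152), on a scale that understates the change of such low levels. Hrk passed the filter only through tumors, since no gland library reached 1 FPKM. With limma-voom on the reads the estimates were 7.0 (TI vs AG, FDR = 0.127) and 6.53 (TIM vs AG, FDR = 0.161), which did not pass, and 5.23 (TIM vs AGM, FDR = 0.0416), which did.

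The lowest Hrk value among tumors was that of TI library 6. In this library the sympatho-adrenal markers summed to 1606 FPKM, the highest of TI, the adrenal cortex markers to 13.5 FPKM, against at most 3.94 FPKM in the other TI libraries, and the leukocyte markers to 11.8 FPKM, the lowest of TI. Bid (0.486 FPKM) and Bcl2l11 (0.380 FPKM) were also at their lowest TI values there. Without it, TIM vs TI for Hrk went from -0.43 ± 0.25 (FDR = 0.218, limma) to -0.65 (FDR = 0.0166), and Bid passed in TI vs AG (0.31, FDR = 0.0483). The part of the markers in these values was not tested.

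Bcl2l11, which makes the broad killer BIM, was lower in TIM than in AG and than in TI. It lies at chr2:127967958-128004476. Its FPKM was 0.840, 1.78 and 1.37 in AG and 0.475, 0.769, 0.687, 0.636 and 0.405 in AGM. It ran from 0.380 over a median of 0.996 to 1.71 in TI and from 0.0616 over 0.277 to 0.807 in TIM. All TIM libraries and all AGM libraries were below all AG libraries, TI overlapped AG, and 5 of 8 TIM libraries were below every TI library. The difference was -0.80 ± 0.16 in TIM vs AG (FDR = 0.000243, limma), -0.58 ± 0.12 in TIM vs TI (FDR = 0.00174) and -0.22 ± 0.16 in TI vs AG (FDR = 0.271). Bcl2l11 passed the filter only through 2 AG and 4 TI libraries, from the groups where it was high. AGM vs AG passed (-0.53 ± 0.17, FDR = 0.0252, limma) but not with a pseudocount of 0.1 (FDR = 0.0711), nor without AG library 2 (FDR = 0.170), AG library 3 (FDR = 0.0868), AGM library 1 (FDR = 0.0511) or AGM library 5 (FDR = 0.0604). In TIM vs AGM the difference of -0.27 ± 0.14 did not pass (FDR = 0.0868, limma), but it passed with a pseudocount of 0.1 (FDR = 0.0327) or without TIM library 7 (FDR = 0.0291).

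Bid, the protein that caspase-8 cuts into its active form, moved the other way from Bcl2l11 and rose in TIM. The gene lies at chr6:120862525-120894171 on the minus strand. Its FPKM was 0.533, 0.428 and 0.459 in AG and 0.764, 0.583, 0.881, 0.686 and 0.703 in AGM. It ran from 0.486 over a median of 0.767 to 1.10 in TI and from 0.684 over 1.44 to 2.03 in TIM. All TIM and all AGM libraries were above every AG library, and 6 of 8 TIM libraries were above every TI library. The difference was 0.69 ± 0.13 in TIM vs AG (FDR = 0.000144, limma), 0.41 ± 0.10 in TIM vs TI (FDR = 0.00485) and 0.46 ± 0.11 in TIM vs AGM (FDR = 0.00101). TI vs AG did not pass (0.27 ± 0.13, FDR = 0.0852, limma), but it passed with a pseudocount of 0.1 (FDR = 0.0387) and with the spread of only those groups (FDR = 0.0289). Bid passed the filter only through tumors, 2 of TI and 7 of TIM.

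Bad, whose protein is kept inactive by phosphorylation from survival signals, was the most abundant BH3-only gene of the glands and was lower in the tumors. It lies at chr19:6918902-6929280. Its FPKM was 4.38, 4.75 and 4.01 in AG and 4.70, 3.12, 4.67, 4.48 and 5.22 in AGM. It ran from 1.98 over a median of 2.67 to 3.06 in TI and from 1.51 over 2.39 to 4.62 in TIM. TI lay wholly below AG, and in TIM 7 of 8 libraries did. The difference was -0.59 ± 0.18 in TI vs AG (FDR = 0.00727, limma), -0.57 ± 0.18 in TIM vs AG (FDR = 0.00944, or 0.0508 without AG library 2) and -0.57 ± 0.15 in TIM vs AGM (FDR = 0.00186). The last did not pass with recomputed FPKM (-0.41, FDR = 0.0592) or limma-voom (-0.41, FDR = 0.0580).

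Bmf, whose protein is held at the cytoskeleton in healthy cells, passed in none of the 5 comparisons. It lies at chr2:118359238-118380177 on the minus strand. Its FPKM was 1.08, 1.06 and 0.707 in AG and 0.880, 0.657, 0.593, 0.737 and 0.562 in AGM, and it ran from 0.430 over 0.938 to 2.23 in TI and from 0.235 over 0.765 to 2.50 in TIM. Both tumor groups reached below and above all gland libraries, and the FDR lay between 0.454 and 0.927 (limma).

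Bak1, the effector that sits in the mitochondrial membrane also in healthy cells, was lower in both tumor groups. It lies at chr17:27238784-27247983 on the minus strand. Its FPKM was 3.94, 3.78 and 3.82 in AG and 3.61, 2.86, 3.16, 3.29 and 4.42 in AGM. It ran from 1.46 over a median of 1.77 to 2.75 in TI and from 1.37 over 1.74 to 2.40 in TIM. Every tumor library was below every gland library. The difference was -0.77 ± 0.12 in TI vs AG (FDR = 1.62e-05, limma), -0.81 ± 0.12 in TIM vs AG (FDR = 9.45e-06) and -0.68 ± 0.10 in TIM vs AGM (FDR = 6.77e-06). The highest tumor value, 2.75 FPKM, was that of TI library 4, where the endothelial markers summed to 17.7 FPKM against at most 5.11 FPKM in the other TI libraries. The part of these markers was not tested.

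Casp8, at chr1:58834375-58886665, had the lowest ratio of tumor to gland level among the 9 tested genes. Its FPKM was 1.28, 1.12 and 1.07 in AG (329 to 398 reads) and 0.699, 1.25, 1.14, 1.27 and 0.929 in AGM (164 to 333 reads). It ran from 0.0918 over a median of 0.258 to 0.518 in TI (30 to 163 reads) and from 0.0725 over 0.156 to 0.414 in TIM (24 to 109 reads). No tumor library reached the lowest gland library. The mean of TI was 0.220 of that of AG, and the mean of TIM was 0.165 of it. The difference was -0.79 ± 0.10 in TI vs AG (FDR = 1.35e-06, limma), -0.86 ± 0.10 in TIM vs AG (FDR = 3.68e-07) and -0.79 ± 0.09 in TIM vs AGM (FDR = 7.17e-08), and these 3 calls held under every alternative that tested the gene. TIM vs TI (-0.07 ± 0.08, FDR = 0.523) and AGM vs AG (-0.08 ± 0.11, FDR = 0.663) did not pass. Casp8 passed the filter only through 3 AG and 3 AGM libraries. Its highest tumor value was again in TI library 4. The highest TIM value was in TIM library 5, which also held the highest Bcl2l1 (6.60 FPKM) and the lowest Bcl2l11 (0.0616 FPKM) of TIM. There the adrenal cortex markers summed to 11.3 FPKM and the adipocyte markers to 36.1 FPKM, the highest sums of TIM. The part of these markers was not tested.

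**Figure D2:**
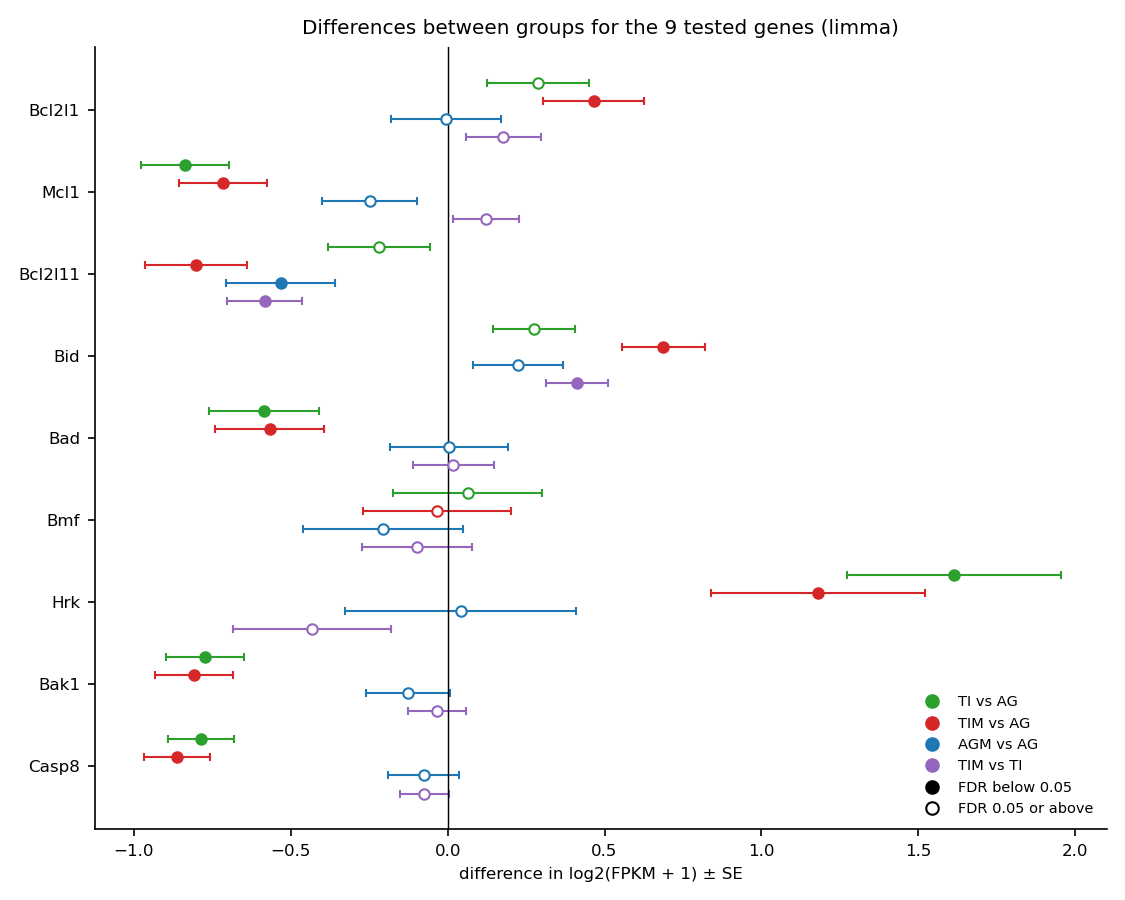
Difference in log2(FPKM + 1) with its SE (horizontal axis) for the 9 tested genes in TIM vs TI, AGM vs AG, TI vs AG and TIM vs AG, with filled symbols at an FDR below 0.05 (limma over 10171 genes). Mcl1, Bad, Bak1 and Casp8 lie left of 0 and Hrk lies right of 0 in both tumor groups, and in TIM vs TI only Bcl2l11 and Bid carry filled symbols.

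Counted over the tested genes, 5 of 9 passed in TI vs AG (Mcl1, Bad, Bak1 and Casp8 lower, Hrk higher). Of all tested genes 52.4% passed there, 24.6% of all as higher in TI and 27.7% of all as lower. In TIM vs AG 8 of 9 passed, all but Bmf, with 5 lower (Mcl1, Bcl2l11, Bad, Bak1 and Casp8) and 3 higher (Bcl2l1, Bid and Hrk), where 51.0% of all genes passed, 22.5% higher and 28.5% lower. Groups did not overlap for 6 of the 9 genes in TI vs AG, against 51.1% of all tested genes, and for 6 of 9 in TIM vs AG, against 42.5%. The median difference of the 9 genes was -0.22 in TI vs AG and -0.57 in TIM vs AG, beside medians of -0.00206 and -0.00486 over all tested genes. TI vs AG and TIM vs AG share the 3 AG libraries. Casp8 entered the test only through glands, Hrk and Bid only through tumors and Bcl2l11 only through AG and TI. These counts are thus not independent of the filter. In TIM vs AGM 7 of 9 passed, with Mcl1, Bad, Bak1 and Casp8 lower and Bcl2l1, Bid and Hrk higher, where 65.3% of all genes passed, 31.9% higher and 33.4% lower, and groups did not overlap for 3 of 9 against 35.2%.

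Glands with the MYCN transgene and no tumor were compared with AG in AGM vs AG, where the groups also differed in CRE and in run. MYCN, CRE and run cannot be told apart there. Only Bcl2l11 passed, 1 of 9, where 28.6% of all genes passed, 14.6% higher and 14.0% lower in AGM. Groups did not overlap for Bcl2l11, Bid and Hrk, 3 of 9 against 61.9% of all tested genes. The set of genes that passed depended on the scaling. With recomputed FPKM 3 genes passed, where 40.6% of all genes did, and with limma-voom 3 passed, where 41.6% did. Mcl1 then passed as lower (-0.73, FDR = 0.00607, and -0.74, FDR = 0.00699) and so did Bak1 (-0.61, FDR = 0.00800, and -0.64, FDR = 0.00513), beside medians over all genes of -0.35 and -0.50. With the spread of only AG and AGM, 3 genes passed, where 62.1% of all genes did, Bid (0.22, FDR = 0.00921) and Hrk (0.04, FDR = 0.0175) among them. Bid did not pass with recomputed FPKM (0.10, FDR = 0.802) or limma-voom (0.0995, FDR = 0.875). Hrk did not pass with them either (0.14, FDR = 0.901, and 1.30, FDR = 0.833).

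Tumors with and without the MYCN transgene beside IGF2BP1 were compared in TIM vs TI, where no TIM sample but 6 of 8 TI samples came from run 1. The groups also differed in IGF2BP1 copies, since 7 of 8 TI samples were IGF2BP1 +/+ and TIM had a single IGF2BP1 allele. MYCN, IGF2BP1 dose and run thus cannot be told apart in TIM vs TI. There 2 of 9 genes passed, Bcl2l11 lower and Bid higher, where 22.9% of all genes passed, 10% higher and 12.9% lower. No gene of the 9 had groups that did not overlap, against 1.55% of all tested genes. Both calls held under every alternative that tested the genes, any single library left out included, and with recomputed FPKM Bid differed by 0.57 (FDR = 0.0242). Bcl2l1 passed only without TIM library 6 (0.27, FDR = 0.0425).

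A balance of the named genes was described, with no test, as the summed FPKM of Bcl2, Bcl2l1 and Mcl1 over that of Bcl2l11, Bid, Bad, Bmf, Hrk and Bak1. Other relatives, such as Bax, Bok, Bbc3 and Bcl2l2, were left out of both sums. Bax alone had a median FPKM of 7.32 in AG, 5.09 in AGM, 8.92 in TI and 7.51 in TIM. The median of the pro-apoptotic sum was 10.8, 10.03, 9.73 and 8.38 in that order. The ratio and the shares of each gene thus describe the summed genes only, not the whole family. The ratio was 1.67, 1.55 and 1.70 in AG, with a mean of 1.64 ± 0.0785 (SD, n = 3), and 1.58 ± 0.238 (SD, n = 5) in AGM. It was 1.29 ± 0.329 in TI (SD, n = 8), from 0.999 over a median of 1.17 to 1.88, and 1.65 ± 0.396 in TIM (SD, n = 8), from 1.23 over 1.61 to 2.55. The groups overlapped, and the AG mean lay within the range of every other group. TI libraries 1, 2, 3, 5, 7 and 8, at 0.999 to 1.40, were nevertheless below every AG library. TI libraries 4 (1.66) and 6 (1.88) were not. The ratio rests on Mcl1: without it the means were 0.296 (AG), 0.319 (AGM), 0.449 (TI) and 0.604 (TIM), so that the means of both tumor groups were above those of the glands. Single libraries of TI and AGM still overlapped, with 0.330 in TI library 2 and 0.350 in AGM library 2.

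**Figure D3:**
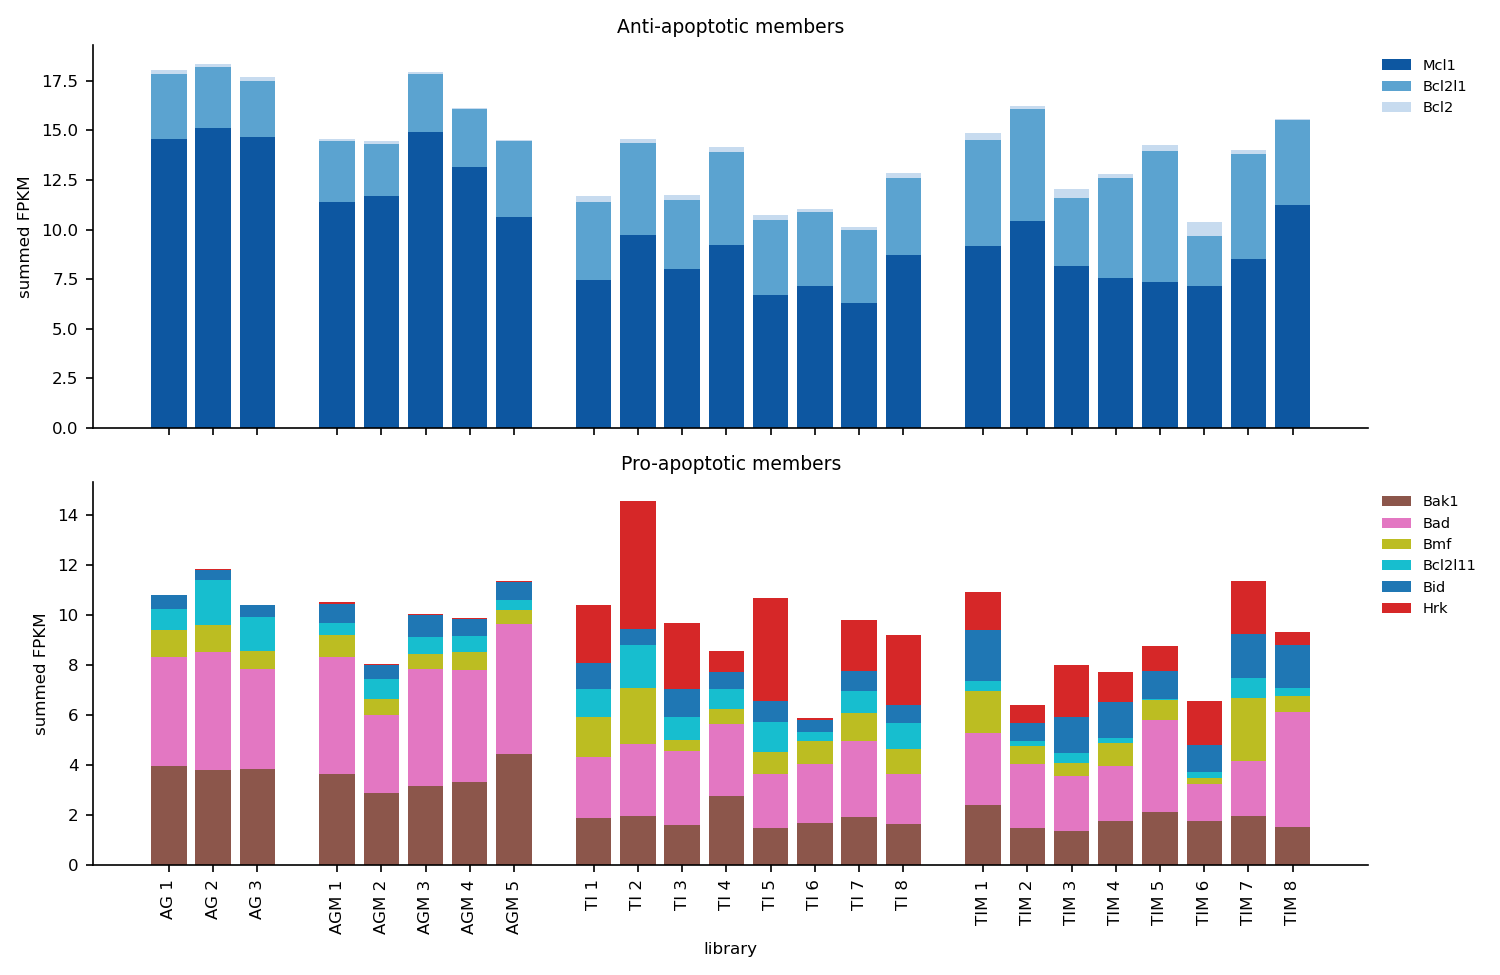
Summed FPKM (vertical axes) of the anti-apoptotic genes Mcl1, Bcl2l1 and Bcl2 (top) and of the pro-apoptotic genes Bak1, Bad, Bmf, Bcl2l11, Bid and Hrk (bottom) in each of the 24 libraries (horizontal axis). The anti-apoptotic sum falls from 17.7 to 18.4 in AG to 10.2 to 14.5 in TI with a smaller Mcl1 part, and the Hrk part, at most 0.538% in glands, takes up to 38.5% of the pro-apoptotic sum in tumors.

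The composition of both sums differed between glands and tumors. Shares of 1 sum depend on each other, so a lower Mcl1 level alone raises the Bcl2l1 share. Bcl2l1 itself did not pass in TI vs AG (FDR = 0.142, limma). Mcl1 held 82.0% ± 1.03 (SD, n = 3) of the anti-apoptotic FPKM in AG and 79.4% ± 3.85 in AGM (n = 5), but 65.1% ± 2.27 in TI (n = 8) and 63.3% ± 6.48 in TIM (n = 8). Bcl2l1 held 17.1% ± 1.01 in AG, 20% ± 3.98 in AGM, 33.1% ± 2.28 in TI and 34.3% ± 7.20 in TIM. Every tumor library had a smaller Mcl1 share than any gland library. On the pro-apoptotic side, where Bax and Bbc3 were left out of the sum, Hrk held 0.0457% to 0.192% in AG and 0.350% to 0.538% in AGM. It held 1.20% to 38.5% in TI and 5.83% to 26.5% in TIM. Bak1 held 35.1% ± 2.69 in AG and 34.8% ± 2.77 in AGM against 19.9% ± 6.84 in TI and 21.1% ± 3.78 in TIM. Bid held 4.33% ± 0.665 in AG, 7.30% ± 0.942 in AGM, 8.28% ± 1.99 in TI and 16.2% ± 3.01 in TIM, while Bcl2l11 held 12.02% ± 3.78, 6.19% ± 2.33, 9.93% ± 1.79 and 3.72% ± 1.86 in the same order.

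The ratios of single pairs, picked after the values were seen and so given with no test, separated glands from tumors more than the sums did. Bcl2l1 over Bak1 was 0.751 to 0.832 in AG and 0.845 to 0.922 in AGM, against 1.72 to 2.59 in TI and 1.45 to 3.85 in TIM. Mcl1 over Bcl2l1 was 4.45 to 5.10 in AG and 2.77 to 5.13 in AGM, against 1.12 to 2.84 in TIM and 1.70 to 2.29 in TI. The first pair did not overlap between glands and tumors, and the second did for AGM library 5 (2.77) and TIM library 6 (2.84).

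**Figure D4:**
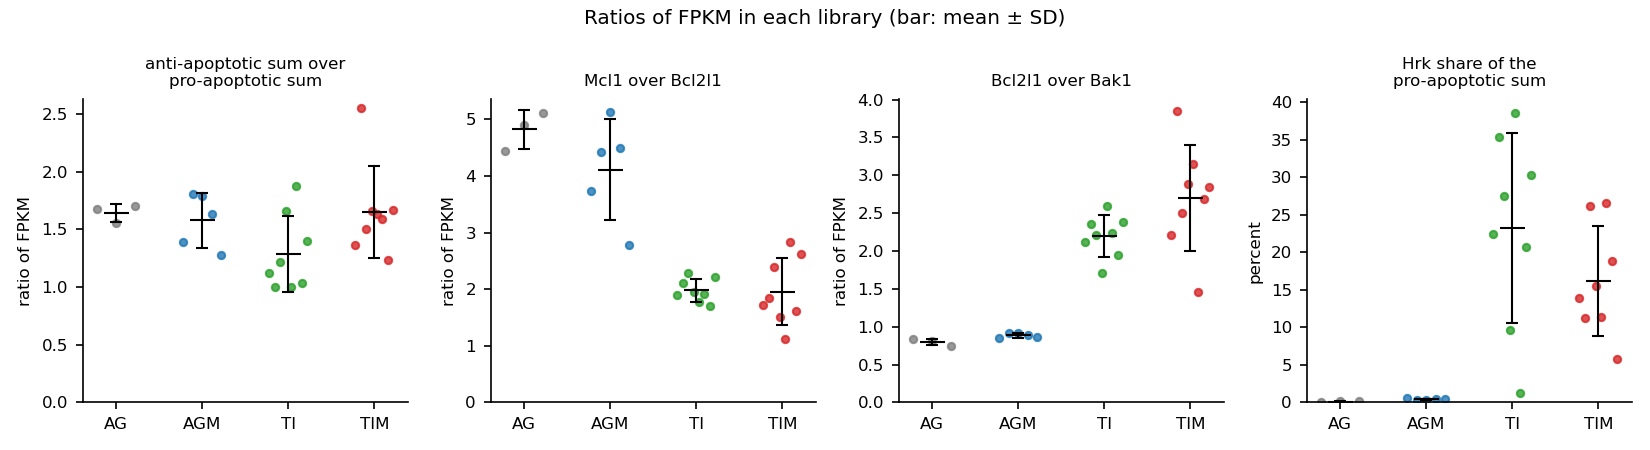
Ratios of FPKM, and the Hrk share of the pro-apoptotic sum in percent (vertical axes, linear, from 0), in each library by group, with the mean ± SD as bars. The anti-apoptotic over pro-apoptotic ratio overlaps between groups, whereas Bcl2l1 over Bak1 is at most 0.922 in glands and at least 1.45 in tumors.

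A list of 33 other apoptosis genes was read in the same fit, of which 18 were tested. In TI vs AG 9 of 18 passed, 3 higher and 6 lower, and in TIM vs AG 10 of 18, 3 higher and 7 lower, beside 52.4% and 51.0% of all genes. The median difference was -0.12 in TI vs AG and -0.04 in TIM vs AG. In the death receptor arm, to which Casp8 belongs, 3 of 5 tested genes passed as lower in TI and 4 of 5 in TIM, beside 27.7% and 28.5% of all genes, and none passed as higher, beside 24.6% and 22.5%. Of these, Fadd and Cflar passed the filter only through glands, Fadd through 3 AG and 5 AGM libraries and Cflar through 3 AG and 1 AGM library. Tnfrsf1a, the main TNF receptor, was 17.4 ± 0.75 FPKM in AG (SD, n = 3) and 22.7 ± 2.3 in AGM (n = 5) against 1.98 ± 1.4 in TI and 2.18 ± 1.2 in TIM (n = 8 each), with differences of -2.73 (TI vs AG, FDR = 6.35e-08, limma) and -2.62 (TIM vs AG, FDR = 1.25e-07).

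Fadd, the adaptor that brings caspase-8 to the receptors, was 1.58 FPKM in AG, 0.636 in TI and 0.466 in TIM, with differences of -0.67 (FDR = 1.29e-05, limma) and -0.82 (FDR = 7.88e-07). Cflar, which makes the caspase-8 inhibitor c-FLIP, was 1.64 FPKM in AG, 0.910 in AGM, 0.325 in TI and 0.214 in TIM, with differences from AG of -1.0 (TI, FDR = 1.62e-09, limma) and -1.12 (TIM, FDR = 2.03e-10). The receptor arm held its inhibitor Cflar and its activators Fadd and Casp8 among the genes that were lower in tumors. Cflar ends 36327 bases before Casp8 starts on chromosome 1. Tradd, another adaptor of the TNF receptor, was lower in TIM than in AG (-0.80, FDR = 8.73e-06, limma) and than in TI (-0.54, FDR = 0.000291).

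Of the genes nearest to the BH3-only and effector members, Bbc3, which makes PUMA, rose in both tumor groups. It was 0.764 ± 0.16 FPKM in AG (SD, n = 3), 1.04 ± 0.21 in AGM (n = 5), 3.70 ± 1.3 in TI and 2.98 ± 0.86 in TIM (n = 8 each), and the difference from AG was 1.38 in TI (FDR = 3.82e-06, limma) and 1.15 in TIM (FDR = 4.20e-05). Bax, the other effector, did not pass against AG and was lower in TIM (7.20 ± 1.9 FPKM) than in TI (11.1 ± 4.0 FPKM), with a difference of -0.53 (FDR = 0.0300, limma). Pmaip1, which makes the MCL1 binder NOXA, was below the filter at 0.0918 FPKM in AG, 0.0397 in AGM, 0.355 in TI and 0.248 in TIM.

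Further down the pathway, 3 of 3 tested inhibitor genes passed in both tumor groups, beside 52.4% (TI vs AG) and 51.0% (TIM vs AG) of all genes. Birc5 was higher and the other 2 were lower. Birc5, which makes survivin and is also made by dividing cells, was 0.327 FPKM in AG, 7.43 in TI and 2.62 in TIM, and passed the filter only through 8 TI and 6 TIM libraries, with differences of 2.45 (FDR = 0.000148, limma) and 1.23 (FDR = 0.0340). In TIM, 7 of 8 libraries were above every AG library and 1, at 0.0937 FPKM, was below every AG library. Birc5 was lower in TIM than in TI (-1.22, FDR = 0.0155, limma). Xiap, a direct inhibitor of caspases and 1 of the 2 lower genes, differed from AG by -0.42 in TI (FDR = 0.00183, limma) and -0.75 in TIM (FDR = 2.73e-06). In TIM vs TI, Xiap was lower (-0.33, FDR = 0.00470, limma), and Htra2, a mitochondrial antagonist of such inhibitors, was higher (0.37, FDR = 0.0108). In TIM vs TI 5 of 18 passed, beside 22.9% of all genes, and in TIM vs AGM 10 of 18, beside 65.3%.

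Without the expression filter, 8 of the 15 remaining list genes passed in TI vs AG, 2 higher and 6 lower, where 39.4% of all genes passed, and 8 of 15 in TIM vs AG, all lower, where 38.6% passed. In AGM vs AG 5 of 18 tested list genes passed, a share near the 28.6% of all genes. The largest of these differences was that of Bcl2l10, an anti-apoptotic relative known from the egg cell. Its values in AGM ran from 0.0101 over a median of 153 to 854 FPKM, while no other library exceeded 0.0444 FPKM. As with the 126 genes above 1000 FPKM, whether such values are expression was not tested. Bcl2l10 was outside the rule for named genes and was singled out after its values were seen.

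**Figure D5:**
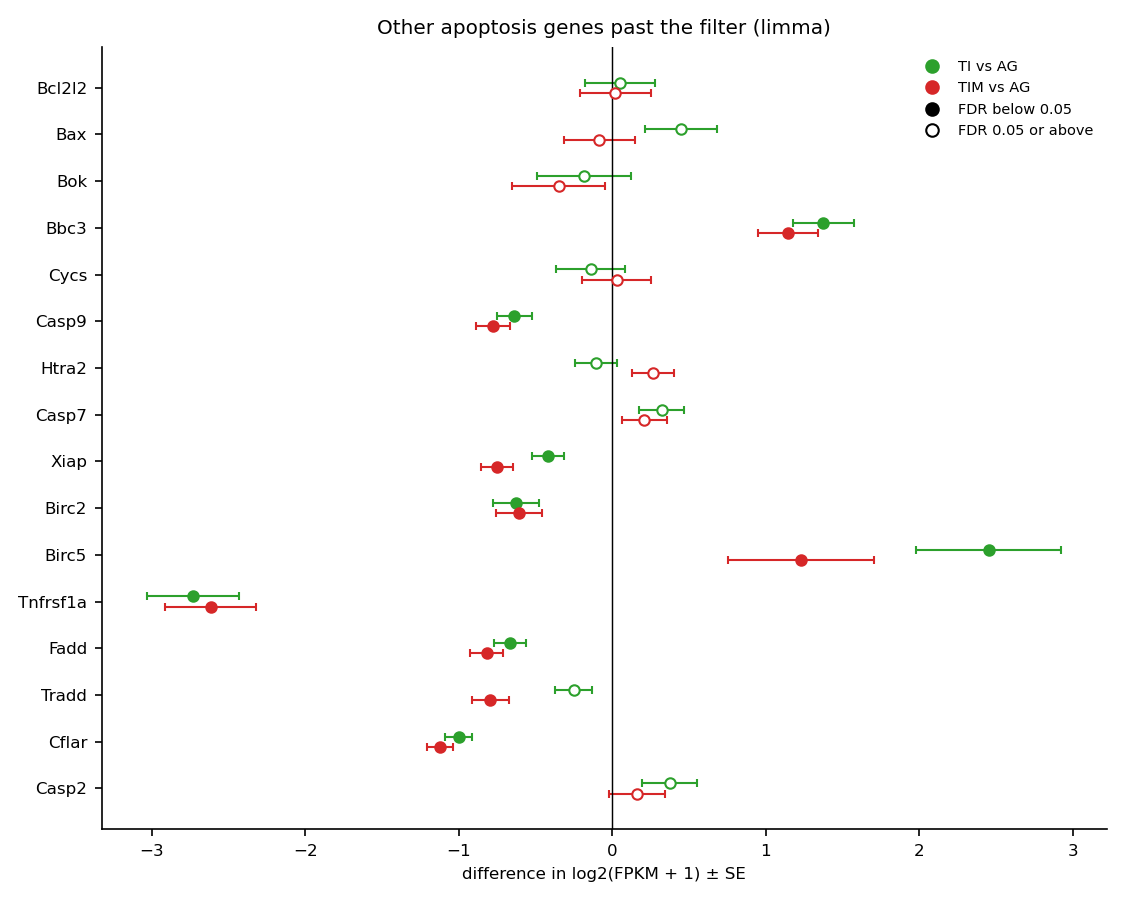
Difference in log2(FPKM + 1) with its SE (horizontal axis) in TI vs AG and TIM vs AG for 16 of the 18 other apoptosis genes past the filter, with filled symbols at an FDR below 0.05 (limma). Tnfrsf1a, Fadd and Cflar of the death receptor arm lie left of 0 in both tumor groups, and Bbc3 and Birc5 lie right of 0.

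The genes most like each member were described by Spearman's rho of log2(FPKM + 1) over the 24 libraries, which share group and run, so no p is given. One of the nearest genes to Hrk was Cdk5r1, the activator of the neuronal kinase CDK5 (rho = 0.962). Casp8 was nearest to Nfe2l2 (rho = 0.939) and Klhl5 (0.924), Bak1 to Stim1 (0.942) and Mindy1 (0.938), and Mcl1 to Rhoa (0.930) and Tceanc2 (0.912). Bad was nearest to Smim20 (0.950) and Ndufc1 (0.929), Bcl2l11 to Gid4 (0.936) and Pim1 (0.900), Bcl2l1 to Adarb2 (0.916) and Tnni1 (0.880), and Bid to Tada3 (0.883) and Aldh18a1 (0.863). Bmf had the weakest neighbours, Fbxw8 (0.723) and Fgd1 (0.667).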

How the data were processed

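Poly(A) strand-specific libraries of 3 AG, 5 AGM, 8 TI and 8 TIM samples were sequenced. Per the submitters' processing notes and the study's methods, the authors aligned reads with HISAT2 2.1.0 to mm39, counted them with featureCounts 2.0.0, corrected the counts for batch with ComBat-seq and scaled them by TMM in edgeR 3.40. The deposited values are FPKM for 21833 protein-coding genes. The deposited table also holds gene lengths and the authors' fold changes, p-values and FDR against AG, which were not used.

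Columns were assigned to groups by name. Their suffixes are not the sample numbers, so library numbers only name columns, and run, zygosity and tumor site could not be attached to them. No columns were identical. FPKM times gene length gave whole multiples of 1 step for 100% of entries (tolerance 0.1), and these multiples were taken as corrected reads. They are not the sequencing depth, and statements on reads cover counting error only.

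limma 3.58.1 (R 4.3.3; lmFit, eBayes with trend) was run on log2(FPKM + 1) of 10171 genes (1 FPKM or more in 3 or more libraries), with 4 groups, no covariates and 5 contrasts. Benjamini-Hochberg adjustment ran over all tested genes, with a threshold of 0.05. Bcl2 was tested on mean FPKM by an exact two-sided permutation test over libraries (Python 3.11.15), adjusted over 5 contrasts. The code was tested on simulated data. Alternatives were a pseudocount of 0.1, no filter, at least 1 FPKM in every library, FPKM recomputed without the 126 genes above 1000 FPKM, limma-voom on the reads, only the groups compared, and each library left out.

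The 10 genes and the lists were chosen with earlier results of these data known. All 10 were named. Of the 33 other apoptosis genes, those were named that passed in both TI vs AG and TIM vs AG in 1 direction with an absolute difference of at least 1 in either, those that passed in TIM vs TI, and Bax, Bbc3, Pmaip1, Fadd and Cflar. Of likeness, the 2 genes with the highest rho were named. Some genes that these rules name are not reported here. Positions and promoters came from GENCODE release M39 on GRCm39.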

Additional observations from a re-analysis of the deposited data

Results flagged for a closer look

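The difference from AG was not the same in TI and TIM for Bcl2l11 and Bid. Tested directly as TIM vs TI in limma, it differed by -0.58 for Bcl2l11 (FDR = 0.00174) and by 0.41 for Bid (FDR = 0.00485). For Bcl2l11, 5 of 8 TIM libraries were below every TI library, and for Bid 6 of 8 were above every TI library.

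Of 33 sets of values checked (each gene, and the anti-apoptotic to pro-apoptotic ratio, in AGM, TI and TIM), 2 held a library far from the others of its group, and chance alone gives about 1 in 20. Bak1 was 2.75 FPKM in TI library 4, where the gap to the next library was 0.614 of the whole range of TI. The anti-apoptotic to pro-apoptotic ratio was 2.55 in TIM library 2, with a gap of 0.669 of the range of TIM.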

How the results depend on the processing

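Of 776 refits of single differences of the 9 tested genes, 746 kept direction and side of the threshold, 16 lost a call and 14 gained one, and none reversed a called direction. Those that changed are given with each gene above. A filter of at least 1 FPKM in every library left 4 of the 10 genes in the test, of which 3 passed in TI vs AG, 4 in TIM vs AG, 4 in TIM vs AGM, 0 in AGM vs AG and 0 in TIM vs TI, and 4 of the 33 other genes, of which 2 passed in TIM vs TI and 0 in the other comparisons. In limma, these counts of 0 held 0 genes at an unadjusted p under 0.05, except 1 of the other genes in AGM vs AG. In AGM vs AG 0 of the 10 genes passed with a pseudocount of 0.1, 3 with recomputed FPKM, 3 with limma-voom and 3 with only those groups, and 0 to 1 when a library was left out. At an unadjusted p under 0.05 these counts of 0 held 1 gene in limma, or 0 without AG library 2. The cause of these changes was not tested.

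Of the 33 other genes, no filter gave 18 calls (TIM vs AGM, where 50.3% of all genes passed), 8 (TIM vs TI, 15.7%), 10 (AGM vs AG, 21.8%), 17 (TI vs AG, 39.4%) and 18 (TIM vs AG, 38.6%), and recomputed FPKM gave 21 (TIM vs AGM, 63.2%), 14 (AGM vs AG, 40.6%), 18 (TI vs AG, 48.8%) and 17 (TIM vs AG, 49.8%), with more genes tested in both. Only the groups compared gave 12 (AGM vs AG, 62.1%) and 3 (TIM vs TI, 12.9%), and leaving out a library gave 3 to 5 in AGM vs AG, with 3 without AG library 1. The adjusted exact p of Bcl2 in TIM vs AGM lay between 0.0316 and 0.182 when a library was left out.

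The anti-apoptotic to pro-apoptotic ratio went to 0.296 (AG), 0.319 (AGM), 0.449 (TI) and 0.604 (TIM) without Mcl1, to 2.73, 2.84, 1.84 and 2.53 without Bad, and to 1.76, 1.86, 1.25 and 1.80 with reads not divided by length. Depth limits Hrk in AG, at 3 to 12 reads. No paired analysis was possible because the columns carry no replicate numbers of the samples.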
